A study of Homo sapiens with 96 samples.

Results

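The data described here are the 12 libraries, of 96 in the series, that show how much more or less an mRNA gained from cycloheximide after 5 h of triptolide in cells under MAPK inhibition than in control cells. The libraries were picked by their labels, and the 5 h time because earlier results of these data had shown the largest shift there. A375, an established human melanoma cell line with a mutated BRAF kinase, was kept for 18 h either in DMSO or in MAPKi, which is the BRAF inhibitor vemurafenib with the MEK inhibitor cobimetinib, each at 500 nM. Cells then received triptolide at 25 µM (T) or triptolide 5 min after cycloheximide at 100 µg/ml (TCHX), and were harvested 5 h later. The 4 groups were thus DMSO T, DMSO TCHX, MAPKi T and MAPKi TCHX, with 3 libraries each, and all 12 libraries had triptolide. Cytoplasmic RNA, 500 ng for each library, was read by QuantSeq, which counts transcripts near their poly(A) end.

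Triptolide blocks transcription by RNA polymerase II, so that an unstable mRNA loses its share of the RNA and a stable one gains share. Cycloheximide stops ribosomes during elongation, and many mRNAs decay only while they are being translated. The rise of an mRNA from T to TCHX is therefore a readout of decay that needs translation, and codon content and the RNA-binding proteins on an mRNA are known to set such decay.

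The interaction reported throughout is the log2 ratio of TCHX to T in MAPKi minus the same ratio in DMSO. A value above 0 means that cycloheximide raised the mRNA more, or lowered it less, in MAPKi ("larger in MAPKi"), and a value below 0 means the opposite ("smaller in MAPKi"). These words keep the sign, so an mRNA that cycloheximide lowered more in MAPKi counts as smaller. The interaction is relative to the typical gene, because libraries were scaled by TMM (trimmed mean of M values) and levels are given in CPM, the count of a gene scaled to a common library total. In bulk RNA, fewer cells and less RNA per cell cannot be told apart. Total counts of the 12 libraries ran from 4999410 to 10642109, and replicates had Pearson correlations of log2 CPM from 0.965 to 0.980. Summed melanocyte lineage markers were at 696 to 973 CPM in the DMSO libraries and 2584 to 3343 CPM in the MAPKi libraries, summed fibroblast markers at 2.28 to 9.62 CPM and endothelial markers at no more than 2.00 CPM. Summed leukocyte markers, mostly CD68 with CD3E at 0, were at 4.56 to 5.53 CPM in DMSO and 12.2 to 27.2 CPM in MAPKi, and keratinocyte markers, nearly all KRT10 with KRT5 and KRT1 at 0, at 114 to 172 CPM. The part of these differences in the results was not tested. Nothing in the labels says that the 3 libraries of a group came from separate cultures, so p-values measure the spread between libraries, which may be technical.

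At 5 h, out of 14948 genes tested, cycloheximide had a larger effect in MAPKi on 269 and a smaller one on 108 (edgeR quasi-likelihood test, adjusted p under 0.05, n = 3 per group). These are 1.8% and 0.723% of the genes tested, 2.52% in all. Each count of called members in a gene list below is to be read beside these shares. The median interaction was 0.88 in the first set, −0.82 in the second and −0.03 over all genes tested, all on the log2 scale. Under triptolide, cycloheximide raised 2512 genes (16.8%) and lowered 1668 (11.2%) in MAPKi, and raised 1946 (13%) and lowered 496 (3.32%) in DMSO. These splits depended on the scaling. Stable-gene size factors, which moved the median effect of all genes from −0.04 to 0.43 in MAPKi and from 0.00 to 0.26 in DMSO, gave 5663 raised and 61 lowered in MAPKi and 3424 and 54 in DMSO, and total counts gave 3418 and 506 and then 2380 and 129. The stable genes were 36 that rose over vehicle at 0 h in every T library at both 3 h and 5 h. The paper's rule, adapted here, says 3 or 5 h. That choice used the T libraries of this contrast and no TCHX library, so it may itself raise TCHX over T, which was not tested. Without DMSO T replicate 3 the genes lowered in DMSO were 279. A fall with cycloheximide is therefore a fall relative to the typical gene. Of the 269 genes, 153 were called up in both pretreatments and 103 were called up in MAPKi with no call in DMSO. The 108 genes divided otherwise: 53 were called down in MAPKi with no call in DMSO, 24 were called up in DMSO with no call in MAPKi, and 19 were called up in both. Called genes were well expressed, at a median of 48.3 CPM in the first set and 45.9 CPM in the second, beside 13.2 CPM over all genes.

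The number of calls depended on scaling and on single libraries. The same stable-gene size factors moved the median of all genes to 0.18 and gave 804 larger and 43 smaller effects, and scaling by total counts gave 447 and 64. With only the 12 libraries in the fit, 58 and 10 genes were called, all of them among the 269 and the 108. That fit has far fewer degrees of freedom and sets the scaling and the spread anew. In each of the 12 fits that left out 1 library, 113 of the 269 and 23 of the 108 genes were called in the same direction. The count of smaller effects fell to 56 without MAPKi T replicate 1, to 65 without MAPKi TCHX replicate 3 or DMSO T replicate 2, and to 70 without DMSO TCHX replicate 2 or 3. Each of these fits also set the scaling and the spread anew, so a change need not come from the left-out library's own values.

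**Figure D1:**
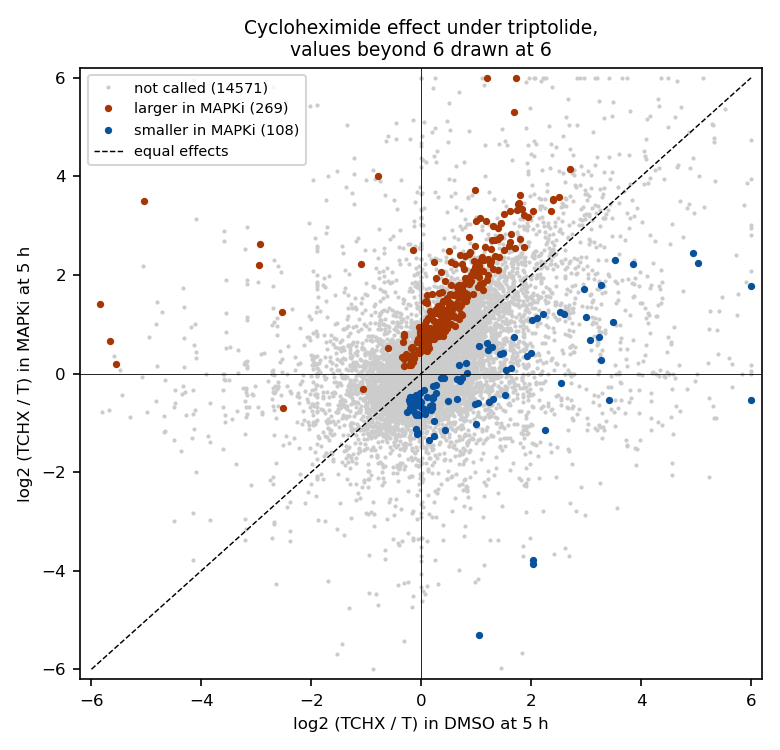
Each point is 1 of the 14948 genes tested, at its log2 ratio of TCHX to T at 5 h in DMSO (x axis) and in MAPKi (y axis), with the dashed line where both are equal. The 269 genes with a larger effect in MAPKi lie above the line, mostly at ratios above 0 in MAPKi, and the 108 with a smaller effect lie below it, many of them below 0 in MAPKi.

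Among the genes with the smallest adjusted p, picked out after their values were seen, was SOX9 (chromosome 17, 72121020 to 72126416 in GRCh38), a transcription factor of the neural crest. It stood at 128, 114 and 108 CPM in DMSO T and at 427, 391 and 367 CPM in DMSO TCHX, against 9.38, 16.3 and 8.57 CPM in MAPKi T and 136, 139 and 112 CPM in MAPKi TCHX. The MAPKi T libraries were the lowest by a wide margin, and MAPKi TCHX overlapped DMSO T. Cycloheximide thus raised SOX9 10.9-fold in MAPKi and 3.39-fold in DMSO, an interaction of 1.68 (standard error 0.18, adjusted p 2.62e-10, edgeR), and the call held whichever library was left out.

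RP9 (chromosome 7, 33094797 to 33109405), which encodes a protein linked to splicing and to retinitis pigmentosa, counted 41.9, 41.5 and 42.4 CPM in DMSO T, 84.0, 90.8 and 88.0 CPM in DMSO TCHX, 5.97, 6.09 and 6.66 CPM in MAPKi T and 57.1, 52.5 and 57.7 CPM in MAPKi TCHX. No 2 of the 4 groups overlapped, and only with triptolide alone was MAPKi far under DMSO. The interaction was 2.10 (standard error 0.24, adjusted p 1.17e-09). Reads could be shared with its pseudogene RP9P, so its level is uncertain to that extent.

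DUSP4 (chromosome 8, 29333064 to 29350684), a phosphatase that switches off ERK and a target gene of the pathway, was far lower in MAPKi in both arms. Its levels were 49.9, 52.9 and 50.1 CPM in DMSO T and 191, 178 and 161 CPM in DMSO TCHX, but 1.71, 1.68 and 1.19 CPM in MAPKi T and 21.5, 17.9 and 19.7 CPM in MAPKi TCHX. Cycloheximide raised it 12.4-fold in MAPKi and 3.47-fold in DMSO (interaction 1.84, standard error 0.25, adjusted p 1.69e-07). Of 26 tested MAPK target genes, SLC20A1, a phosphate transporter, was also called larger (0.63), and FOSL1, an AP-1 subunit, smaller (−1.29, called in 6 of the 12 fits without a library). Larger calls were 7.69% of these 26 genes and smaller calls 3.85%, beside 1.8% and 0.723% of all genes.

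BTG1 (chromosome 12, 92140278 to 92145846), an anti-proliferative factor that binds the CCR4-NOT deadenylase, behaved differently because MAPKi and DMSO were close under triptolide alone. It read 67.1, 49.1 and 45.5 CPM in DMSO T and 63.3, 58.8 and 75.2 CPM in MAPKi T, which overlapped, whereas TCHX gave 211, 207 and 206 CPM in DMSO and 599, 546 and 625 CPM in MAPKi. The interaction was 1.22 (standard error 0.15, adjusted p 3.59e-08). In vehicle at 0 h BTG1 had 320 ± 20.2 CPM in DMSO and 975 ± 56.4 CPM in MAPKi (SD, n = 3), so that in each pretreatment the TCHX level was nearer than the T level to the start.

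SOX4, another transcription factor, was higher in MAPKi than in DMSO in both arms. It rose from 20.9, 16.6 and 16.1 CPM in DMSO T to 44.8, 44.8 and 39.1 CPM in DMSO TCHX, and from 90.6, 66.8 and 89.7 CPM in MAPKi T to 464, 438 and 525 CPM in MAPKi TCHX, with an interaction of 1.26 (adjusted p 1e-07, edgeR). PPP4R3A, a regulatory subunit of protein phosphatase 4, gained from cycloheximide in MAPKi, from 16.0, 15.4 and 17.4 to 54.0, 49.9 and 42.8 CPM. In DMSO it went from 42.4, 43.8 and 39.3 to 51.7, 44.7 and 38.6 CPM, where the groups overlapped, and the interaction was 1.49 (adjusted p 1.17e-09).

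**Figure D2:**
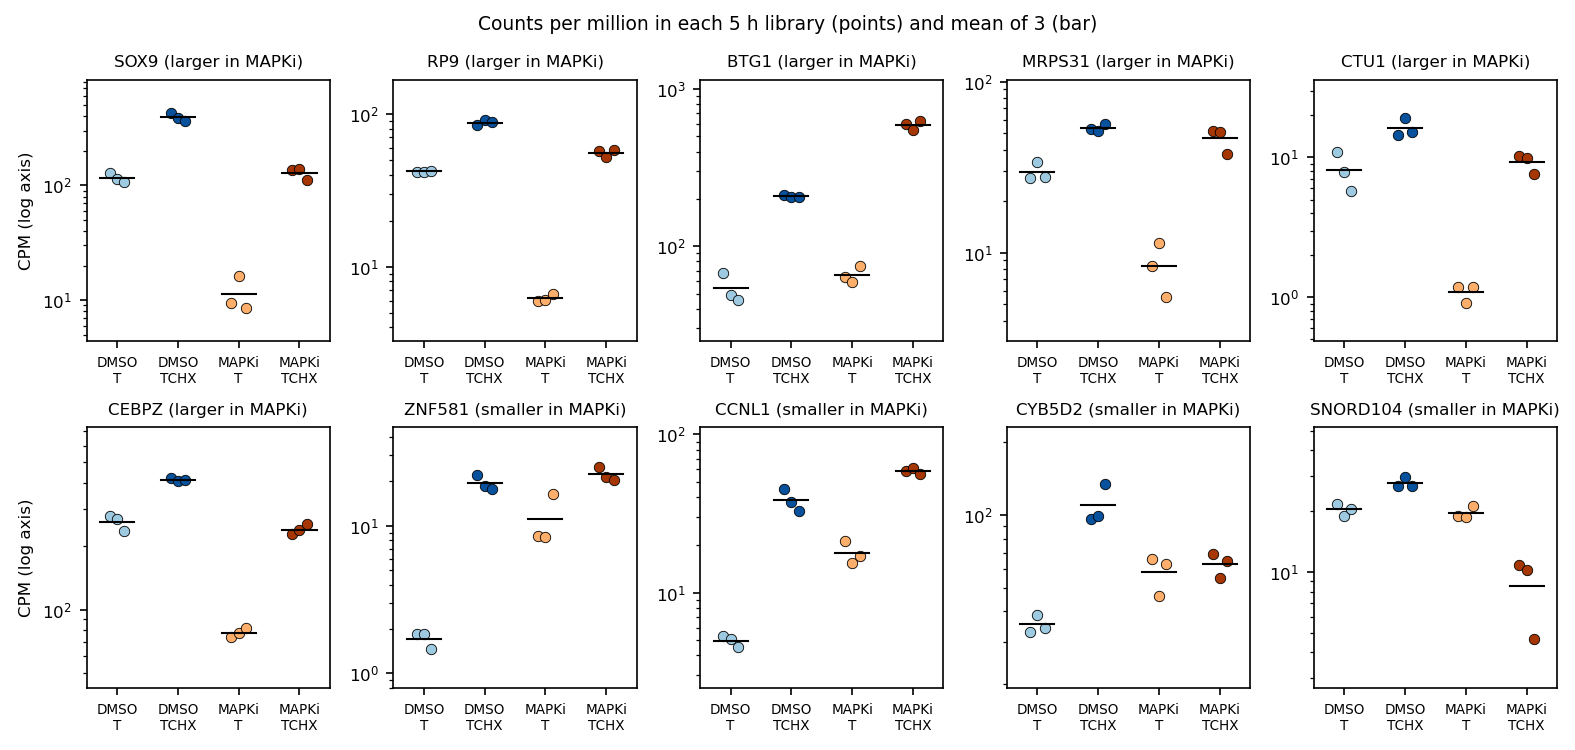
Each panel gives 1 gene, with CPM on a log axis in each of the 3 libraries (points) and their mean (bar) in DMSO T, DMSO TCHX, MAPKi T and MAPKi TCHX at 5 h. SOX9, RP9, MRPS31, CTU1 and CEBPZ were lowest in MAPKi T, BTG1 was highest in MAPKi TCHX, ZNF581 and CCNL1 were lowest in DMSO T, and SNORD104 was lowest in MAPKi TCHX.

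By the rule for naming genes, those with a mean of at least 5 CPM and the largest called interactions also included CTU1, GSPT2, TBPL1, PROSER2, HSPA2 and BMF. CTU1 (chromosome 19, 51097606 to 51108409), which thiolates the wobble uridine of tRNAs that read A-ending codons, stood at 11, 7.82 and 5.71 CPM in DMSO T, 14.5, 19.2 and 15.1 CPM in DMSO TCHX, 1.19, 0.907 and 1.19 CPM in MAPKi T and 10.2, 9.91 and 7.64 CPM in MAPKi TCHX. Its interaction was 2.11 (standard error 0.46, adjusted p 0.00261), and no other of the 12 tested genes for wobble uridine modification was called. GSPT2, an eRF3 translation release factor, rose 8.53-fold in MAPKi and 2.27-fold in DMSO (interaction 1.91, adjusted p 0.000871), and TBPL1, a TBP-like factor, 4.81-fold and 1.17-fold (2.04, adjusted p 0.00217).

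PROSER2 read 0, 0.518 and 0 CPM in MAPKi T and 3.41, 2.94 and 3.18 CPM in MAPKi TCHX, and its call was lost without MAPKi T replicate 1 (adjusted p 0.0689). HSPA2, a testis-enriched heat shock protein, differed from the rest since cycloheximide lowered it, to 0.176 of its level in DMSO, while its ratio of 0.620 in MAPKi was not called, and the interaction (1.82) was called in only 4 of the 12 fits that left out a library. BMF, a pro-apoptotic BH3-only protein, rose from 3.24, 3.37 and 6.19 to 24.6, 23.7 and 28.4 CPM in MAPKi. It had at most 3 counts in any DMSO TCHX library, so no interaction size is given.

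Of the named genes, 3 owed their place to 1 library. The entry SLC16A1_1, a repeat of the symbol of a lactate transporter that could not be matched to the annotation, read 124 CPM in DMSO T replicate 3 and at most 1.5 CPM in the other 11 libraries. NDUFB9, a subunit of respiratory complex I, read 94.4 CPM in MAPKi TCHX replicate 2 and at most 3.72 CPM elsewhere, and RPN2, a subunit of the oligosaccharyltransferase, read 207 CPM in MAPKi T replicate 2 and at most 3.84 CPM elsewhere. Without that library the adjusted p was 0.926 for SLC16A1_1, 0.946 for NDUFB9 and 0.818 for RPN2.

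ZNF581 (chromosome 19, 55635459 to 55645623), a zinc finger gene that overlaps ZNF580 and CCDC106 and is therefore uncertain in its counts, had the smallest adjusted p among smaller effects. It counted 1.86, 1.84 and 1.46 CPM in DMSO T and 22.0, 18.6 and 17.6 CPM in DMSO TCHX, and 8.53, 8.42 and 16.4 CPM in MAPKi T and 25.2, 21.4 and 20.4 CPM in MAPKi TCHX. Here DMSO T was the low group, cycloheximide raised the gene 11.3-fold in DMSO and 2.08-fold in MAPKi, and the interaction was −2.44 (standard error 0.32, adjusted p 9.59e-08). CCNL1, a cyclin of the splicing kinases, followed the same order, from 5.29, 5.06 and 4.52 to 45.0, 37.3 and 32.8 CPM in DMSO and from 21.1, 15.4 and 16.9 to 58.6, 60.8 and 56.2 CPM in MAPKi (interaction −1.24, adjusted p 0.000351).

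CYB5D2 (chromosome 17, 4143168 to 4187310, opposite ANKFY1), a heme-binding membrane protein, rose in DMSO from 33.0, 38.8 and 34.3 to 96.7, 99.5 and 134 CPM. In MAPKi it read 66.0, 46.1 and 62.6 CPM with triptolide and 69.0, 54.8 and 64.5 CPM with both, which overlapped, and the interaction was −1.53 (adjusted p 2.22e-06). RN7SL832P, a signal recognition particle RNA copy that overlaps another such entry, rose 8.04-fold in DMSO and 2.21-fold in MAPKi (−1.86, adjusted p 0.000574).

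Other genes fell with cycloheximide in MAPKi. SNORD104, a C/D box small nucleolar RNA within SNHG25, read 18.9, 18.8 and 21.2 CPM in MAPKi T but 10.8, 10.2 and 4.67 CPM in MAPKi TCHX, beside 21.7, 19.0 and 20.5 and then 26.7, 29.7 and 26.7 CPM in DMSO (interaction −1.58, adjusted p 0.00275). NGFR, the p75 neurotrophin receptor of neural crest-like melanoma cells, was at 134, 149 and 153 CPM in MAPKi T and 95.0, 113 and 80.4 CPM in MAPKi TCHX, but at no more than 6.40 CPM in any DMSO library (−1.62, adjusted p 0.00646, lost without DMSO T replicate 3 or DMSO TCHX replicate 1). SLC25A45, a mitochondrial carrier, fell to 0.655 of its level in MAPKi and rose 1.97-fold in DMSO (−1.59, adjusted p 0.00332).

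The remaining genes with the largest negative interactions were low, at 1 to 5.06 CPM in DMSO T for NEK8, HYLS1 and VCPKMT. NEK8, a ciliary kinase, rose 2.89-fold in DMSO with a ratio of 0.742 in MAPKi (−1.96, adjusted p 0.00879). HYLS1, a centriole protein, rose 14.4-fold in DMSO and 4.68-fold in MAPKi (−1.62), and was not called without MAPKi T replicate 3 (adjusted p 0.181). VCPKMT, a methyltransferase of the chaperone VCP, was not called without DMSO T replicate 1 or 3 (−1.57), and ZNF84 was called in 7 of the 12 fits (−1.58).

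Cytosolic ribosomal protein mRNAs, which are long-lived, leaned towards lower levels with cycloheximide, with a median of −0.34 in MAPKi and −0.23 in DMSO. Of 81 tested, 53 were called lower with cycloheximide in MAPKi and 36 in DMSO (beside 11.2% and 3.32% of all genes, under TMM). In the interaction 3 were called smaller, among them RPLP1 and RPL32, and none larger, that is 3.70% beside 0.723% of all genes. The median interaction of the list was −0.10. RPLP1, a protein of the ribosomal stalk, read 7318, 6388 and 6846 CPM in MAPKi T and 4976, 5011 and 4871 CPM in MAPKi TCHX, beside 5315, 5210 and 5480 and then 4474, 4689 and 4712 CPM in DMSO. This small interaction of −0.26 (standard error 0.06, adjusted p 0.00805) was just missed without MAPKi T replicate 1 (adjusted p 0.0512), and RPL32 (−0.34) was called in 4 of the 12 fits.

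The 24 other mRNAs with a 5′ TOP motif had no call and a median of −0.11, beside −0.03 over all genes. Among 32 translation initiation factors, EIF1B was called larger (1.30, in 7 of the 12 fits without a library). EIF5, the GTPase activator of the initiation complex, was called smaller in all 12 (−0.56), and EIF3I in 3 of them (−0.38). Larger calls were 3.125% of the 32 factors and smaller calls 6.25%, beside 1.8% and 0.723% of all genes. Of 37 aminoacyl-tRNA synthetases and their scaffold proteins, the scaffold protein AIMP2 was called larger (0.59, in 8 of the 12 fits).

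Among mitochondrial ribosomal proteins the median was 0.14, and 4 of 72 (5.56%, beside 1.8% of all genes) were called larger and none smaller. MRPS31 stood at 27.3, 33.7 and 27.6 CPM in DMSO T, 53.1, 51.2 and 56.8 CPM in DMSO TCHX, 8.36, 11.4 and 5.47 CPM in MAPKi T and 51.5, 50.7 and 37.5 CPM in MAPKi TCHX. With triptolide alone the MAPKi libraries were clearly lower, while with both inhibitors the pretreatments overlapped (interaction 1.56, standard error 0.22, adjusted p 5.07e-07). MRPS30 (0.97) and MRPL44 (0.99) were also called in every fit that left out a library, and MRPL58 (0.51) in 4 of 12.

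Factors that assemble ribosomes in the nucleolus were also examined. A list of 116 of them was written only after the calls had been seen, so its count is a description and not evidence. Of 108 tested, 26 were called larger, 17 of these in every fit that left out a library, and none smaller, that is 24.1% beside 1.8% of all genes. The median interaction was 0.25, and 90 of the 108 were above 0. The median member's log2 CPM, relative to its own mean over the 12 libraries, was 0.46, 0.48 and 0.47 in DMSO T, 0.77, 0.70 and 0.72 in DMSO TCHX, −0.89, −0.80 and −0.83 in MAPKi T and −0.31, −0.29 and −0.37 in MAPKi TCHX. All MAPKi libraries lay below all DMSO libraries, and the step from T to TCHX was larger in MAPKi.

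UTP3, of the small subunit processome, counted 145, 153 and 138 CPM in DMSO T, 194, 181 and 188 CPM in DMSO TCHX, 27.3, 37.4 and 42.4 CPM in MAPKi T and 105, 115 and 118 CPM in MAPKi TCHX (interaction 1.29, standard error 0.16, adjusted p 1.06e-08). CEBPZ (chromosome 2, 37201612 to 37231596, opposite CEBPZOS), the homologue of a yeast factor for the large subunit, rose from 279, 270 and 236 to 420, 407 and 410 CPM in DMSO and from 73.8, 77.2 and 82.1 to 228, 238 and 253 CPM in MAPKi. These are 1.58-fold and 3.09-fold rises (interaction 0.97, adjusted p 3.09e-08). The largest called values of the list were those of NGDN (1.73), RIOK2 (1.61, not called without DMSO T replicate 2), UTP23 (1.37), UTP3, NOP16 (1.24) and IMP3 (1.17).

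Codon content did not enter the selection of the called genes, and its medians differed between them. Coding sequences came from GENCODE 44 for 11985 of the genes tested, 261 of them called larger and 93 called smaller. Codons ending in A or T made up a median of 53.8% of the coding sequence in the genes called larger, 42.1% in all genes and 29.5% in the genes called smaller. GAA, a codon of glutamate, ran at 4.15%, 2.84% and 2.06% in the same order, AAA, for lysine, at 3.55%, 2.36% and 1.43%, GAT, for aspartate, at 2.73%, 2.12% and 1.90%, and AAT, for asparagine, at 2.11%, 1.53% and 1.14%. The synonymous codons GAG and GAC went the other way, at 3.51%, 3.76% and 4.41% and at 2.08%, 2.39% and 2.94%. At the level of amino acids, aspartate plus glutamate made up 13.2%, 11.9% and 11.5%.

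To show what such sequences look like, the 40 codons that hold the most GAA, GAT, AAA and AAT are given 5′ to 3′ for 2 genes called larger and 2 called smaller, picked after their values were seen. Those 4 codons are in capitals. RP9 holds 15 of them in codons 166 to 205 and CEBPZ holds 21 in codons 102 to 141, while GAPDH holds 7 in codons 50 to 89 and COPE, a subunit of the COPI vesicle coat, 2 in codons 161 to 200.
RP9: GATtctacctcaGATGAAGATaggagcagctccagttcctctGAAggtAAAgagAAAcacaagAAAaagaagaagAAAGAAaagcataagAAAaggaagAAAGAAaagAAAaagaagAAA
CEBPZ: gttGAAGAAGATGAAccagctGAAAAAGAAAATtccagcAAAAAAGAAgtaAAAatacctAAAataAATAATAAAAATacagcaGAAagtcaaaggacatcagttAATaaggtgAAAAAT
GAPDH: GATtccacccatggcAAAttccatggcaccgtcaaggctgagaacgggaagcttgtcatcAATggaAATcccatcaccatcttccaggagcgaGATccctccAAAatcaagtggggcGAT
COPE: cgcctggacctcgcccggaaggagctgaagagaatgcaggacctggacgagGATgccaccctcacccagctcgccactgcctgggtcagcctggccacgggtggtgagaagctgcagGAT

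Over the whole coding sequence, A- or T-ending codons were 46.2% in RP9, 63.2% in CEBPZ, 28.1% in GAPDH and 14.0% in COPE. GAPDH and COPE both fell with cycloheximide in MAPKi. GAPDH, of glycolysis, read 11849, 9852 and 10977 CPM in MAPKi T and 7523, 7669 and 6746 CPM in MAPKi TCHX, beside 8968, 8308 and 8742 and then 7481, 7698 and 8573 CPM in DMSO. Its interaction of −0.44 (adjusted p 0.0256) was called in 7 of the 12 fits without a library, and that of COPE of −0.69 (adjusted p 0.000647) in all 12. The relation had clear exceptions, since A- or T-ending codons were only 7.47% of SOX9, 14.2% of DUSP4 and 6.61% of CTU1, which were all called larger.

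Across all coding genes the relation at 5 h under triptolide was gradual and weak. When the genes were put into 10 groups of equal size by the share of A- or T-ending codons, the median interaction went from −0.14 in the lowest group (at most 18.8%) to 0.10 in the highest (at least 64.2%). In the lowest group 1.67% of genes were called larger and 1.17% smaller, and in the highest 5.09% and none of 1199. In MAPKi alone the median cycloheximide effect went from −0.10 to 0.14 over these groups. In DMSO it was 0.06 in the lowest, fell to −0.04 in group 7 and was 0.05 in the highest. Spearman's rho over the 11985 genes, which are not independent and share the 12 libraries, was 0.161 for A- or T-ending codons, 0.163 for GAA, 0.153 for AAA and 0.0821 for aspartate plus glutamate. Expression moved with composition too, from a median of 14.7 CPM in the lowest group to 26.7 CPM in the highest, and its part in the relation was not tested. At 3 h the median interaction was only −0.01 in the lowest group and 0.05 in the highest. Without triptolide at 5 h it ran the other way, from 0.08 in the lowest group to −0.18 in the highest.

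**Figure D3:**
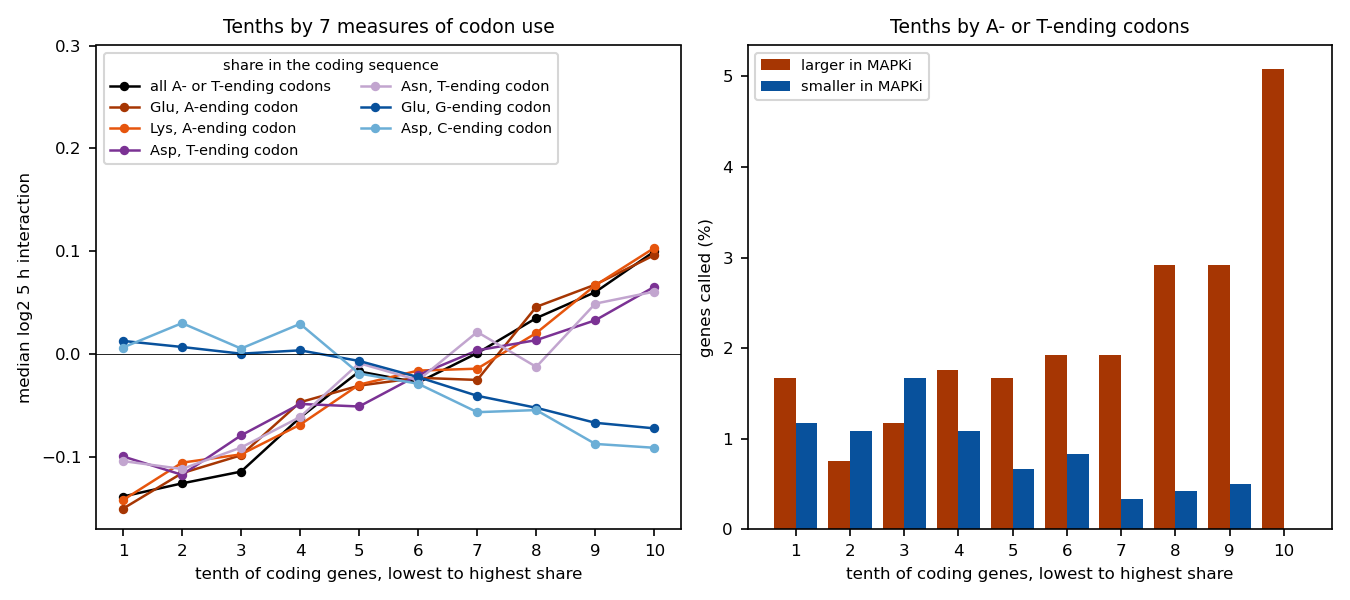
Left, the median log2 interaction at 5 h (y axis) in 10 equal groups of 11985 coding genes ordered by the share of each kind of codon (x axis, lowest to highest); right, the percent of genes called larger or smaller in MAPKi in 10 groups by A- or T-ending codons. Medians are lower at the left than at the right end for the A-ending codon of Glu, from −0.15 to 0.10, and the reverse for its G-ending codon and the C-ending codon of Asp.

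Regulators of mitosis leaned towards a larger effect in MAPKi, with a median of 0.17 and 75 of 89 genes above 0. In all 6 were called larger and none smaller, that is 6.74% against the 1.8% of all genes. Among them SGO2, NDC80, UBE2C and NCAPG were called in all 12 fits without a library and CDC25A in 7. The median member, relative to its own mean, was at 0.07, 0.10 and 0.01 in DMSO T, 0.27, 0.27 and 0.18 in DMSO TCHX, −0.37, −0.28 and −0.35 in MAPKi T and 0.04, 0.04 and 0.05 in MAPKi TCHX. SGO2, which protects centromeric cohesin, rose from 66.9, 67.6 and 74.0 to 151, 144 and 134 CPM in MAPKi and from 118, 116 and 99.9 to 165, 141 and 140 CPM in DMSO (interaction 0.62, standard error 0.13, adjusted p 0.00185). UBE2C, the ubiquitin-conjugating enzyme of the anaphase-promoting complex, rose 1.96-fold in MAPKi, against a ratio of 1.21 in DMSO that was not called (0.70, adjusted p 0.00211).

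In excision, mismatch and translesion repair, MSH6, APTX, ERCC4 and ERCC6 were called larger and 1 gene smaller, of 45 tested (median 0.14). These are 8.89% and 2.22%, beside 1.8% and 0.723% of all genes. MSH6, of the mismatch recognition complex, stood at 43.3, 54.8 and 42.8 CPM in MAPKi T and 121, 105 and 104 CPM in MAPKi TCHX, but at 238, 239 and 213 and then 303, 279 and 240 CPM in DMSO (interaction 0.97, adjusted p 5.9e-07, called in all 12 fits). APTX (0.61) was called in only 4 of those fits, and ERCC4 and ERCC6 in 2 each. RFC4, a subunit of the clamp loader, was the 1 called of 67 DNA replication genes (1.07, adjusted p 6.3e-05). None of 49 homologous recombination and Fanconi genes (median 0.15), 37 kinesins, 15 tubulins, 29 genes of the G1 cyclin, E2F and RB list or 40 replication-dependent histones was called in either direction.

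Immediate-early and other short-lived mRNAs gained most from cycloheximide in both pretreatments. The median effect was 1.72 in MAPKi and 1.77 in DMSO on the log2 scale, 37 of 55 were called up in MAPKi and 39 in DMSO (beside 16.8% and 13% of all genes), and none was called down in either. In the interaction BTG1, KLF9 and KLF6 were called larger and CCNL1 and IER5L (−2.38, in 6 of the 12 fits) smaller, so the list was not of 1 direction (median 0.32). Larger calls were 5.45% of the list and smaller calls 3.64%, beside 1.8% and 0.723% of all genes. KLF9, a Krüppel-like factor, read 21.1, 20.6 and 25.0 CPM in MAPKi T and 93.2, 78.5 and 112 CPM in MAPKi TCHX, beside 25.1, 27.0 and 20.7 and then 49.4, 50.9 and 53.7 CPM in DMSO (interaction 1.01, adjusted p 0.00306). KLF6 (1.45) was not called without DMSO T replicate 2 or MAPKi T replicate 2.

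Zinc finger ZNF mRNAs, also short-lived as a class, had the same median effect, 0.94 on the log2 scale in each pretreatment, and 7 of 405 were called larger and 4 smaller, beside 1.8% and 0.723% of all genes. The called members included ZNF622 (1.11) and ZNF24 (0.72) with larger effects and ZNF581 and ZNF224 (−1.48) with smaller ones.

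Among mRNA decay factors, CNOT2, a scaffold of the CCR4-NOT deadenylase, was called larger and no other of 14 deadenylase genes was called. It read 38.5, 36.7 and 36.2 CPM in MAPKi T and 75.4, 91.5 and 101 CPM in MAPKi TCHX, and in DMSO 52.6, 50.3 and 60.2 and then 67.5, 62.5 and 64.1 CPM (interaction 1.01, standard error 0.13, adjusted p 1.06e-07). The RNA helicase DDX6 (0.57) and the exosome subunit EXOSC9 (0.87) were called larger of 33 decapping, exonuclease and exosome genes (6.06%, beside 1.8% of all genes). In nonsense-mediated decay GSPT2, UPF2 (0.69) and SMG8 (1.56) were called larger and SMG9 (−1.01) smaller, of 21 tested. These are 14.3% and 4.76%, beside 1.8% and 0.723% of all genes. UPF2 was called in 10 of the fits without a library, SMG9 in 8 and SMG8 in 4.

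MED8, GTF2E2 and MED19 were called larger among 66 genes of RNA polymerase II, general factors and Mediator (4.55%, beside 1.8% of all genes, median 0.11). MED8, a subunit of the Mediator head, rose from 33.6, 36.1 and 31.7 to 83.5, 79.5 and 80.8 CPM in MAPKi (interaction 0.76, adjusted p 0.000916), and GTF2E2 (0.67) was not called without DMSO TCHX replicate 3, nor MED19 (0.45) in 7 of the 12 fits. Of 22 hnRNP genes, HNRNPUL1 and PCBP2 were called smaller (9.09%, beside 0.723% of all genes), each with −0.40 and in all 12 fits. None of 19 SR and CLK splicing genes was called.

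Of 33 heat shock genes, DNAJB1, HSF2 and HSPA2 were called larger (9.09%, beside 1.8% of all genes) and none smaller (median 0.14). DNAJB1, an HSP40 cochaperone, rose from 7.67, 7.64 and 13.3 to 29.9, 54.3 and 64.3 CPM in MAPKi and from 25.4, 27.0 and 25.6 to 52.8, 35.2 and 37.4 CPM in DMSO (interaction 1.71, standard error 0.30, adjusted p 9.93e-05). HSF2, a heat shock transcription factor, had 1.1 and lost its call without DMSO T replicate 1 or MAPKi TCHX replicate 3. None of 42 proteasome genes was called.

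Respiratory chain, matrix, lysosome and glycolysis genes leaned to a negative interaction, with few calls. Relative to the typical gene they fell more with cycloheximide in MAPKi than in DMSO. Median effects in MAPKi and DMSO were −0.43 and −0.25 for respiratory chain and −0.39 and −0.07 for matrix genes. They were −0.45 and −0.17 for lysosome and −0.34 and −0.08 for glycolysis genes. For nuclear-encoded respiratory chain genes the median interaction was −0.15. COX6B1, ATP5MC1 and UQCR11 were called smaller of 71 (4.23%, beside 0.723% of all genes), with NDUFB9 the 1 called larger through a single library. COX6B1, a subunit of cytochrome c oxidase, fell from 829, 647 and 712 to 491, 459 and 495 CPM in MAPKi and from 475, 452 and 501 to 401, 397 and 441 CPM in DMSO (−0.39, adjusted p 0.0101), but was not called without MAPKi T replicate 1 or DMSO TCHX replicate 3. ATP5MC1 (−0.49) and UQCR11 (−0.33) were called in 7 and 4 of the fits without a library.

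Collagens, laminins and integrins had a median of −0.32, and only 9 of 53 were above 0. COL4A2, ITGA3 and COL15A1 were called smaller, 5.66% against the 0.723% of all genes, and none larger. COL4A2, a chain of basement membrane collagen that overlaps COL4A1 on the other strand, went from 196, 187 and 197 to 126, 123 and 98.4 CPM in MAPKi and from 248, 264 and 292 to 258, 243 and 211 CPM in DMSO (−0.56, standard error 0.13, adjusted p 0.00573). It narrowly lost its call without MAPKi TCHX replicate 3 (adjusted p 0.0534), ITGA3 (−0.89) was called in 4 of the 12 fits, and COL15A1 had at most 3 counts per library in DMSO T and in MAPKi TCHX, so that no size is given.

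Lysosome and V-ATPase genes had a median of −0.27 with 7 of 50 above 0 and LAMP1, a lysosomal membrane protein, called smaller (−0.42, in 7 of the 12 fits). For the endoplasmic reticulum, SPCS3, of the signal peptidase, was called smaller in all 12 fits (−0.49), and RPN2 through 1 library, of 39 tested (5.13%, beside 0.723% of all genes). GAPDH was the 1 called of 21 glycolysis genes (median −0.22), and none of 28 cholesterol synthesis genes was called.

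Of the remaining lists, SOX9 was the 1 called of 20 melanocyte lineage genes, BMF of 18 BCL2 family genes, TRIB3 (1.26) of 26 ATF4 stress genes and AMOTL1 (0.44) of 29 contractile and YAP target genes, all with larger effects. TRIB3 was called in 9 of the 12 fits without a library and AMOTL1 in 5. Among 19 selenoprotein genes SEPHS2 was called larger (1.05) and SELENON smaller (−0.48), in 11 and 5 of the 12 fits.

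**Figure D4:**
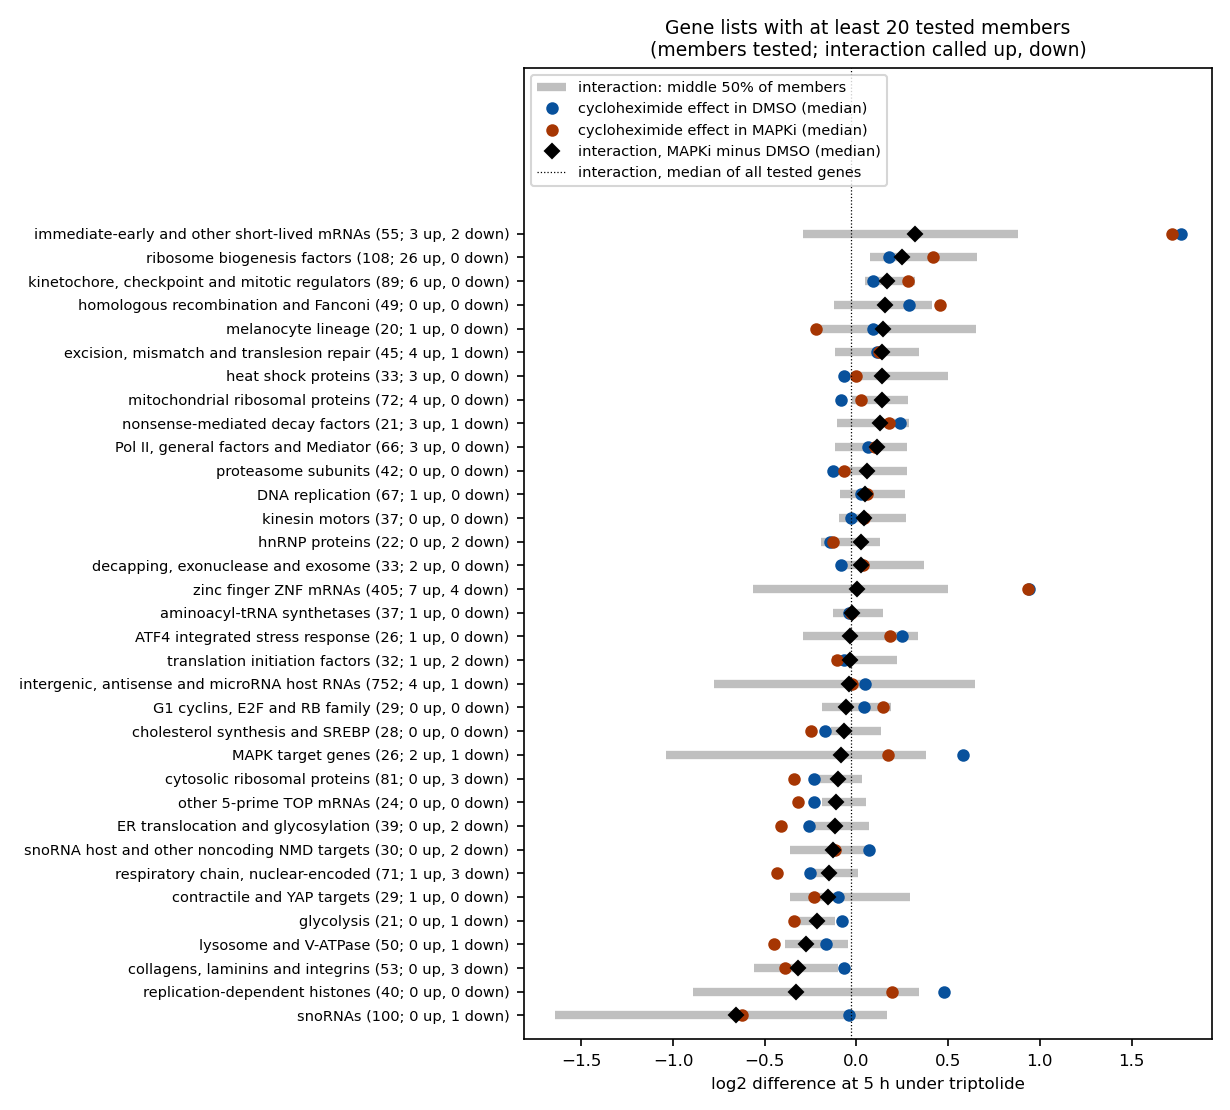
For each list with at least 20 tested members, the median log2 cycloheximide effect at 5 h in DMSO and in MAPKi (circles), the median interaction (diamond) and the middle 50% of its members (grey bar), with members tested and called in brackets. Immediate-early mRNAs have the largest effects in both pretreatments (1.77 in DMSO and 1.72 in MAPKi), ribosome biogenesis factors have 26 larger calls, and collagens, lysosome genes, histones and snoRNAs lie at negative medians.

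Small nucleolar RNAs had the most negative median of all lists, −0.66, with a cycloheximide effect of −0.62 in MAPKi and −0.04 in DMSO. Only SNORD104 of 100 tested was called in the interaction. Since QuantSeq primes on poly(A), these counts may stand for polyadenylated or host RNA, which was not tested. Of 30 snoRNA host and other noncoding targets of nonsense-mediated decay, GAS5 (−0.50) and EPB41L4A-AS1 (−0.85) were called smaller, in 3 and in all 12 of the fits. That is 6.67% of the list, beside 0.723% of all genes. Among 752 intergenic, antisense and microRNA host RNAs, HSD17B1-AS1, OTUD6B-AS1, WAC-AS1 and MIR100HG were called larger and EPB41L4A-AS1 smaller. These shares, 0.532% and 0.133%, were below the 1.8% and 0.723% of all genes. HSD17B1-AS1 rose 9.79-fold in MAPKi and 3.06-fold in DMSO (1.68, adjusted p 0.0216, in 9 of the 12 fits), OTUD6B-AS1 had 0.52 (in 5), WAC-AS1 had 0.68 (in 6), and MIR100HG had at most 3 counts in every MAPKi T library. Reads of such genes and of the genes opposite them cannot be told apart if strand was not used, which also concerns many coding genes, since 180 of 268 annotated genes called larger and 76 of 104 called smaller overlap another gene on either strand. The share over all genes tested was not computed, so these counts do not set the called genes apart from the rest.

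The interaction was called for more genes at later times, and 5 h was itself chosen for the size of its shift. It was called for 0 genes at 0 h and for 0 at 1 h by edgeR and by DESeq2 (by edgeR 620 and 542 at an unadjusted p under 0.05), for 61 larger and 11 smaller at 3 h (0.408% and 0.0736%) and for 269 and 108 at 5 h. The 5 h contrast uses the means of the 5 h libraries, but the other times entered the same fit and its estimate of the spread. In their own contrasts, the median interaction of the 269 genes was 0.01 at 0 h, 0.04 at 1 h and 0.36 at 3 h, and 254 of the 269 were above 0 at 3 h, beside 49.4% of all genes. For the 108 genes it was −0.02, −0.04 and −0.15, with 25 above 0 at 3 h. The 26 genes called larger at both 3 h and 5 h were 9.67% of the 5 h calls and 42.6% of the 3 h calls.

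SOX9 already had 1.21 at 3 h (adjusted p 1.06e-06), RP9 1.36 (7.19e-05), SOX4 1.11 (6.72e-06), BTG1 0.95 (4.12e-05), MRPS31 1.01 (0.00369), UTP3 0.79 (0.00216) and CCNL1 −1.0 (0.00475), all edgeR adjusted p. ZNF581, with −0.64 at 3 h (adjusted p 0.44), and CTU1, with 0.47 (adjusted p 0.858), were not called there.

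The 5 h calls arose against different starting levels. In vehicle at 0 h the 269 genes were already lower in MAPKi than in DMSO, by a median log2 difference of −0.35, which was −1.05 with triptolide at 5 h and −0.16 with both inhibitors. Relative to the typical gene they changed over 5 h of triptolide by a median of −1.41 in MAPKi and −0.65 in DMSO. For the 108 genes, MAPKi minus DMSO was 0.14 at the start, 0.63 with triptolide and −0.08 with both inhibitors, and triptolide alone changed them by 0.43 in MAPKi and −0.01 in DMSO. These contrasts share the T and TCHX libraries with the interaction, so they describe the called genes and are not separate evidence.

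Without triptolide, the same interaction at 5 h (cycloheximide against vehicle) was called for 586 larger and 803 smaller effects, 3.92% and 5.37% of genes (9.29% in all). That balance turned with the scaling, to 1177 and 313 with stable-gene size factors, 1157 and 401 with total counts, and 654 and 662 with DESeq2 size factors. It was 675 and 686 in the fit without MAPKi T replicate 1 at 5 h, a library that is not in this contrast. The difference between the arms with and without triptolide was itself called for 775 genes, or 5.18%. The median of the 269 genes without triptolide was −0.05, as over all genes, and 26 were called in the same direction and 39 in the opposite one. For the 108 genes the median was −0.17, and 24 (22.2%, beside 5.37% of all genes) were called in the same direction and 8 in the opposite one. BTG1 had −0.71 without triptolide (adjusted p 0.000262), KLF9 −1.80 (7.98e-11) and DNAJB1 −1.20 (0.000217), all opposite to their sign under triptolide, while DUSP4, with 1.39 (8.42e-10), and CCNL1, with −1.65 (3.22e-11), kept theirs. Short-lived mRNAs had a median of −0.75 without triptolide against 0.32 with it, and the 1199 genes richest in A- or T-ending codons −0.18 against 0.10. The 1199 genes poorest in such codons had 0.08 against −0.14.

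**Figure D5:**
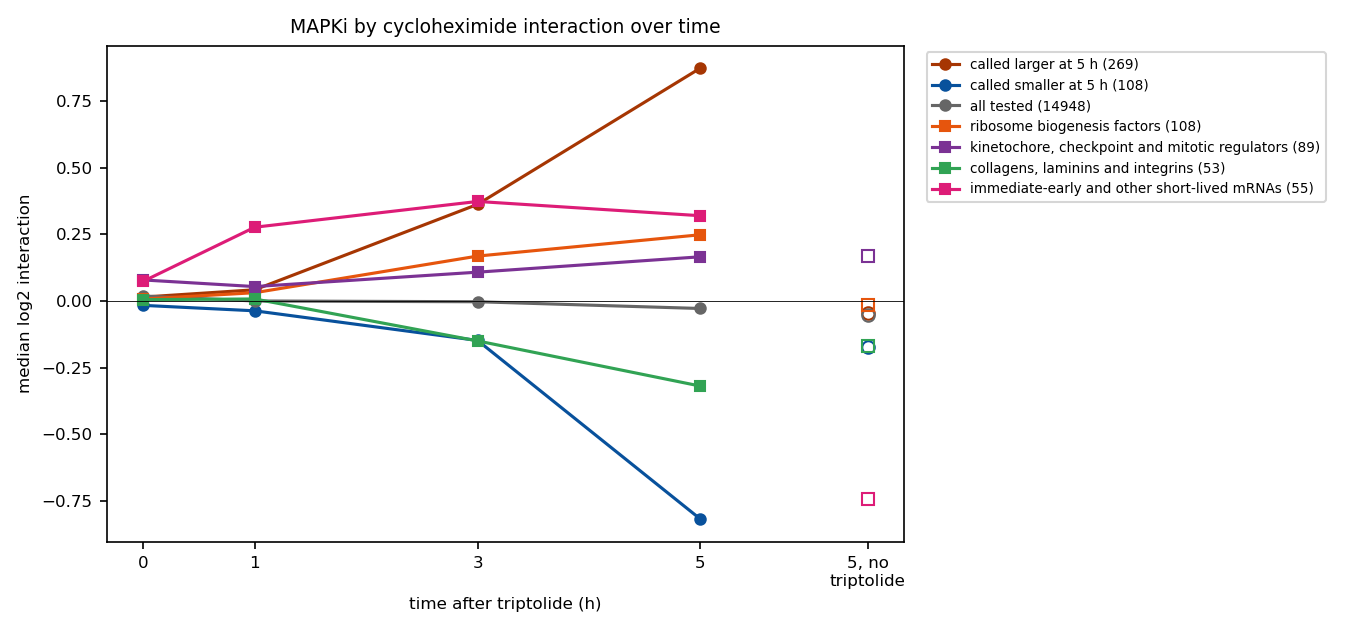
Median log2 interaction (y axis) at 0, 1, 3 and 5 h under triptolide (x axis, filled symbols joined by lines) and at 5 h without triptolide (open symbols), for the genes called at 5 h, all genes tested and 4 lists; the 5 h values of the called genes are what selected them. The genes called larger go from 0.01 at 0 h to 0.36 at 3 h and 0.88 at 5 h and lie at −0.05 without triptolide, and short-lived mRNAs change sign to −0.75 without triptolide.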

How the data were processed

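Cytoplasmic RNA of A375 cells was sequenced by QuantSeq. The authors deposited raw counts per gene for 96 libraries. Per their methods and notes, reads were trimmed with fastp 0.20.1, mapped to GRCh38 with HISAT2 2.2.1 and counted with HTSeq 0.13.5. The strand setting is not given in the sources used here. Reads carry no described molecular identifiers.

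Genes were kept by filterByExpr (14948 of 44659). All 96 libraries entered 1 quasi-likelihood fit (edgeR 4.0.16, R 4.3.3, TMM scaling, a term for each of the 32 groups), and contrasts were tested two-sided with Benjamini-Hochberg adjustment. The fit was tested on simulated data in which 100 genes had a log2 interaction of 1 in size and 100 had 2. It recovered 34% of the first and 58% of the second, with 5 false calls among 97. A gene without a call may therefore still differ. Named genes were called, had at least 5 CPM on average and were the 10 largest per direction, or the 2 smallest adjusted p in a direction of a list with at least 3 such calls. The members, the 39 lists and this rule were chosen with earlier results of these data known. No fold is given where all libraries of a group held at most 3 counts. Symbols were matched to GENCODE 44 (27026 directly, 319 by synonym, 17006 not at all), whose GRCh38 coordinates and coding sequences were used. Alternatives were other scalings, no filter, DESeq2 1.42.0, fewer libraries, a replicate block and leaving out each library. Values of some called list members are not reported here.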

Additional observations from a re-analysis of the deposited data

Results flagged for a closer look

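The interaction differed between the arms with and without triptolide. A test of that difference, over the 12 libraries with triptolide and the 12 without it at 5 h, called 507 genes with a higher and 268 with a lower interaction under triptolide (edgeR, adjusted p under 0.05, 3.39% and 1.79% of genes). With total counts the split was 389 and 389. Among the genes with the largest 5 h interactions, the log2 difference was 3.05 for TBPL1 (adjusted p 0.000115), 2.42 for GSPT2 (0.000231), 2.03 for CTU1 (0.0224) and 1.79 for RP9 (3.64e-05). It was −2.67 for ZNF581 (2.11e-06), −2.18 for HYLS1 (0.000814) and −1.86 for RN7SL832P (0.016). The values of 5.86 for SLC16A1_1 (0.0489) and 5.56 for NDUFB9 (0.00384) rest on the single library of each gene given above. For DUSP4 the difference was 0.44 (adjusted p 0.484) and was not called.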

How the results depend on the processing

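Calls of the 5 h interaction, 269 larger and 108 smaller, became 804 and 43 with stable-gene size factors, 447 and 64 with total counts, and 58 and 10 with only the contrast's libraries. Leaving out 1 library gave 185 to 297 larger and 56 to 147 smaller effects. At 3 h the 72 calls became 122 with total counts, 123 by the DESeq2 Wald test and 7 with only the contrast's libraries, and the 775 calls for the difference between the arms became 510 in the latter. Without a filter on low counts the 0 calls at 0 h and at 1 h became 19 and 13. Other totals of both directions stayed within 1.5 times, but the counts in each direction of the cycloheximide effects and of the interaction without triptolide did not, as given above. Genes lowered in DMSO were 811 with only the contrast's libraries and 829 by the DESeq2 Wald test. Counts of called members moved by over 1.5 times in 26 of 40 lists with stable-gene size factors and in 25 with only the contrast's libraries. The cause of these shifts was not tested. A fit with only the contrast's libraries has fewer degrees of freedom and also its own scaling and estimate of the spread. No gene in the text changed direction under any alternative. Relative to the median of all genes, the medians of mitochondrial ribosomal proteins (0.11 to 0.21), mitotic regulators (0.18 to 0.24), ribosome biogenesis factors (0.25 to 0.32), short-lived mRNAs (0.17 to 0.50), collagens (−0.34 to −0.23), lysosome genes (−0.30 to −0.15) and cytosolic ribosomal proteins (−0.10 to −0.04) kept their sign in all 19 alternatives, and tubulins and melanocyte genes did so in 18. The alternatives reuse the same libraries and are not separate evidence. The list of ribosome biogenesis factors was written after the calls had been seen, so its sign is a description only. Libraries with the same replicate number share a prefix in their column names across all 32 groups, so they may belong together. Deviations from group means of same-numbered libraries correlated at −0.07 to 0.11, beside −0.18 to 0.14 for other pairs. With 3 libraries per group these correlations cannot exclude pairing. A replicate block gave 305 larger and 143 smaller effects, which included all 269 and 108. Genes at a few CPM, such as NEK8, are limited by depth.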
